A study of Mus musculus with 38 samples.

Results

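The response of lung and forestomach to the highest dose of dibenz(a,h)anthracene (DBahA), a polycyclic aromatic hydrocarbon, was compared probe by probe. The quantity described is a difference of differences, namely the change between vehicle and highest dose in lung minus the same change in forestomach. It rests on 20 of the 38 arrays of the series, those of the vehicle group D0 and the highest dose group D3 in both tissues, and every one of the 55681 non-control probes on the array was tested. Calls required a limma p of at most 0.05 after Benjamini-Hochberg adjustment over all probes, together with a change of 1.5-fold or more.

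All animals were male MutaMouse about 10 weeks old, a transgenic strain that carries a bacterial lacZ gene as a mutation reporter, so vehicle mice carry it too. They were gavaged once a day for 28 days with olive oil alone (D0) or with DBahA in olive oil at a daily 25 mg per kg body weight (D3), and tissues were taken 72 h after the final dose. Lung was measured in 5 mice of each group. Forestomach was measured in 5 D0 mice on 5 arrays and in 4 D3 mice on 5 arrays, because mouse number 18 appears on 2 of them, and those 2 were averaged to 1 replicate. The second of them lies on slide 5, which also holds the lung of mouse 20, and the labels do not say whether both came from 1 animal. The pair differed widely for some genes, for example 0.19 against 8.25 for Cblif (gastric intrinsic factor) and 1.34 against 5.91 for Ces2c, so that the number of 4 D3 forestomach mice is uncertain. With the first array alone 95 probes were called for the difference described below, with the second alone 108 and with both kept apart 111, against 105 with their average. Both tissues came from the same animals, except that mouse 20 of D3 has a lung array and no forestomach array under its number. Each array held tissue RNA labelled with Cy5 against a universal mouse reference RNA, pooled from cell lines, labelled with Cy3. Values are therefore log2 ratios of sample to reference. A p-value sets a change against the spread between mice within groups, pooled over all dose groups. The joint fit of both tissues takes the lung and forestomach of a mouse as independent, although they come from the same animal.

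Such hydrocarbons are absorbed and oxidised by cytochrome P450 enzymes that the aryl hydrocarbon receptor (AhR) induces, and some of the products form bulky adducts on DNA. Damaged DNA stabilises the transcription factor p53, which raises genes that halt the cell cycle, start cell death or restrain p53 itself. Lung is a site at a distance from the gavage, rich in endothelium and alveolar epithelium, whereas the forestomach of rodents is a squamous pouch that receives the dose directly.

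The labels held against markers of each tissue. All 8 markers of alveolar type 2 cells were well above background on every lung array, and 9 to 10 of 10 squamous epithelium markers on every forestomach array. Markers of the adjoining glandular stomach split the forestomach arrays. On 7 arrays all 10 markers were well above background, with a mean log2 Cy5 signal between 12.52 and 15.18, while on the other 3 (D0 mice 2 and 5 and the first array of mouse 18) 2 to 6 of them were, with a mean between 6.66 and 6.84. The median forestomach change of these markers was 1.22 on the log2 scale, and none of the 10 was called. In bulk tissue, fewer cells of a type and less RNA per cell cannot be told apart. Between 30.1% and 63.8% of probes were well above background on an array, with a median of 48.8% in lung and 40.0% in forestomach, and the number of arrays limits the precision.

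The tissues differed at 105 probes (0.189% of those tested), 101 of them higher in lung (0.181%) and 4 lower (0.00718%). The called probes named 72 genes, 69 higher and 3 lower, and 25 called probes had no gene symbol. Among the higher genes were 8 of 28 listed p53 targets and 9 of 21 listed genes of mitosis and DNA replication. Of the 101 probes, 84 were also called in the lung alone, where 326 probes were called (0.585%), 268 of them higher (0.481%). In forestomach none was called by limma, the smallest adjusted p was 0.147, and 2078 probes had an unadjusted p under 0.05. Over all probes, including those not above background, the median standard error was 0.0961 in lung and 0.115 in forestomach. Whether precision accounts for the lack of forestomach calls was not tested. The forestomach change of the 101 probes lay within 1.2-fold for 54 of them. It was below 0 for 79 and above 0 for 22. At an unadjusted limma p under 0.05, 27 were lower in forestomach, a result 2.03% of all probes gave, and none was higher. The contrast subtracts the forestomach change, so picking its highest probes favours low values there, and these counts are no evidence of a fall. Across the 18080 probes measured in both tissues, a correlation that describes genes and not replicates, the lung and forestomach changes had r = 0.215.

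**Figure D1:**
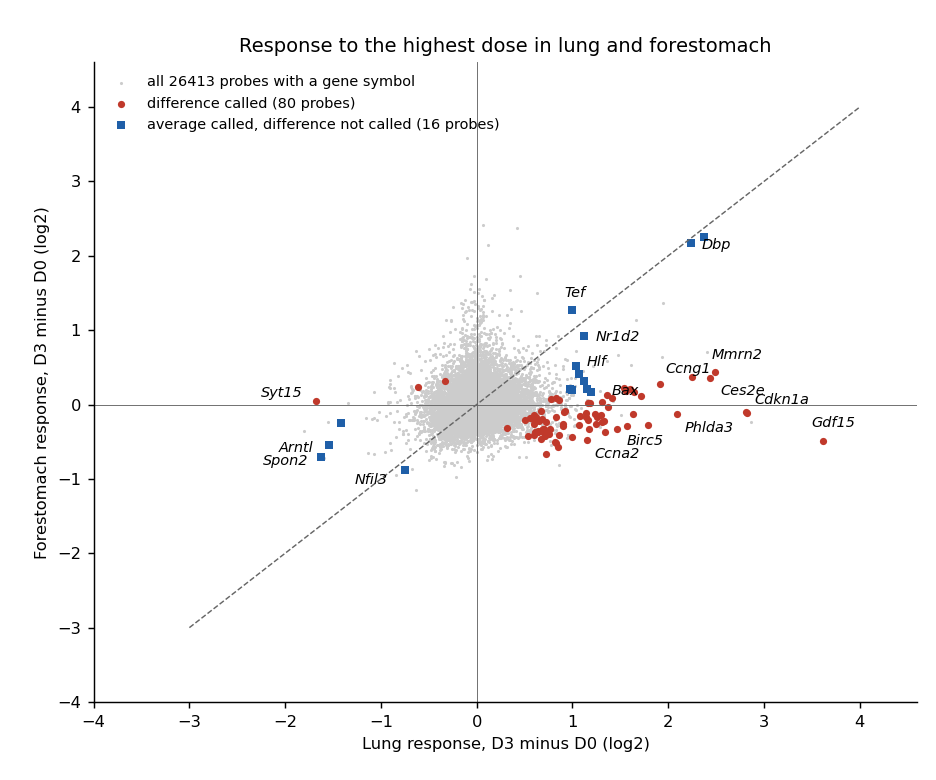
Each point is a probe with a gene symbol, placed by its D3 minus D0 change in lung (x axis, log2) and in forestomach (y axis, log2). Red points are the 80 probes with a called difference, mostly to the right at forestomach changes near or below 0 with Syt15, Wdr45 and Pan3 to the left, and blue squares the 16 called for the average of both tissues without a called difference.

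Of the 5 slides, 4 held both doses in both tissues. With slide as a block 219 probes were called (200 higher, 19 lower) and 104 of the 105 were among them, and with scan day as a block 211 (197 higher, 14 lower) with all 105. Within each of those 4 slides, 52 of the 53 named genes with a called difference kept its sign, the exception being Cd34. Those arrays also made the calls, so the kept signs are no independent check. Without the 3 forestomach arrays low in glandular markers, 109 probes were called (92 higher, 17 lower), 77 of them among the 105. Leaving out 1 mouse of a tissue gave between 59 and 123 calls, with 59 without D3 forestomach mouse 16, 64 without D0 forestomach mouse 4, 65 without D3 forestomach mouse 17 and 69 without D0 lung mouse 5. When loess was replaced by median centring of scanner intensities, 2 probes were called.

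The highest difference was that of Gdf15, a secreted cytokine of stressed cells. Its log2 ratio was -2.46, -2.15, -1.94, -1.81 and -1.64 in D0 lung and 1.35, 1.5, 1.51, 1.75 and 1.94 in D3 lung. In forestomach it was -3.32, -2.36, -2.30, -1.92 and -1.56 at D0 and -3.43, -3.28, -2.37 and -2.05 at D3. The lung groups stood wholly apart while the forestomach groups overlapped. The lung change was 12.2-fold, and the difference between tissues was 4.10 ± 0.45 on the log2 scale (SE, limma adjusted p = 2.88e-06), with values within slides from 3.13 to 4.40. In forestomach the probe was well above background on 3 of 5 D0 and 4 of 5 D3 arrays, so its low end there is poorly measured.

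Cdkn1a, which encodes the cyclin-dependent kinase inhibitor p21 and is the textbook p53 target, gave the smallest p of these genes. Its ratios were -1.38, -1.18, -0.91, -0.80 and -0.78 in D0 lung and 1.48, 1.58, 1.80, 2.05 and 2.16 in D3 lung, against 0.49, 0.55, 0.64, 0.71 and 0.73 in D0 forestomach and 0.36, 0.43, 0.61 and 0.66 in D3 forestomach. The level in vehicle mice was higher in forestomach than in any D0 lung, and the D3 lungs passed the forestomach level in every mouse. The lung change was 7.07-fold and the forestomach change 0.927-fold, a difference of 2.93 ± 0.20 (adjusted p = 4.65e-11), and a second probe gave 2.91. The first and second arrays of mouse 18 gave 0.87 and 0.45.

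Of the 28 p53 targets listed, 8 had a higher response in lung, 12 were called higher in lung and none was called in forestomach. Their median difference was 0.68, made of a lung median of 0.54 and a forestomach median of 0.00, beside a median difference of 0.00 over all probes. The list mean of the D3 lungs, set against D0 lung, lay between 0.59 and 0.84, above all D0 lungs (-0.08 to 0.07), while the forestomach means overlapped (-0.09 to 0.09 at D3 and -0.21 to 0.12 at D0).

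Among the 12 genes of arrest and feedback, 4 were called for the difference. Beside Cdkn1a they were Ccng1 (cyclin G1, a p53-induced cyclin) at 1.64 ± 0.35 (adjusted p = 0.0359), Trp53inp1 (a p53-binding nuclear protein) at 1.27 ± 0.21 (adjusted p = 0.00247) and Mdm2 at 0.74 ± 0.16 (adjusted p = 0.0431). Mdm2 encodes the ubiquitin ligase that degrades p53. Its ratios ran from -0.15 to 0.16 in D0 lung, from 0.52 to 1.18 in D3 lung, from -0.87 to -0.50 in D0 forestomach and from -0.79 to -0.50 in D3 forestomach, so that the groups were apart in lung and overlapped in forestomach. Zmat3, Sesn2 and Plk2, further arrest or stress genes of the list, were called in lung, at 1.19, 0.86 and 0.84, without a called difference. Their forestomach changes were 0.17, -0.27 and 0.01.

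Among the 11 genes of cell death, 4 were called. Phlda3, a pleckstrin homology protein that restrains Akt, had ratios between -0.13 and 0.06 in D0 lung and between 1.84 and 2.38 in D3 lung, and in forestomach -1.06, 0.60, 0.88, 0.89 and 1.02 at D0 against -0.22, 0.29, 0.63 and 0.64 at D3. Its difference was 2.22 ± 0.40 (adjusted p = 0.00475). Bax, the pore-forming protein of mitochondrial apoptosis, was at -0.80, -0.73, -0.62, -0.55 and -0.48 in D0 lung and at 0.59, 0.61, 0.68, 0.81 and 1.02 in D3 lung. In forestomach Bax was at -1.30, -1.10, -0.95, -0.91 and -0.60 in D0 and at -1.12, -1.12, -0.96 and -0.83 in D3. The lung groups did not overlap and the forestomach groups did, with a difference of 1.41 ± 0.17 (adjusted p = 2.42e-05). Aen, an apoptosis-enhancing nuclease, differed by 1.38 ± 0.23 (adjusted p = 0.00308), and Ei24, a membrane protein induced by p53, by 0.80. None of the 5 listed genes of DNA repair and nucleotide supply was called for the difference, and 1, the bypass polymerase gene Polk (named after its value was seen), was called in lung at 0.68.

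Of these 8 calls, those of Ccng1 and Mdm2 each failed in 13 of 19 refits with a single mouse omitted from a tissue (adjusted p up to 0.14 for Ccng1 without D3 forestomach mouse 17 and 0.131 for Mdm2 without mouse 16), and that of Ei24 in 4 (up to 0.0877 without mouse 17). That of Trp53inp1 was lost with the Feature Extraction log ratio (0.53).

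**Figure D2:**
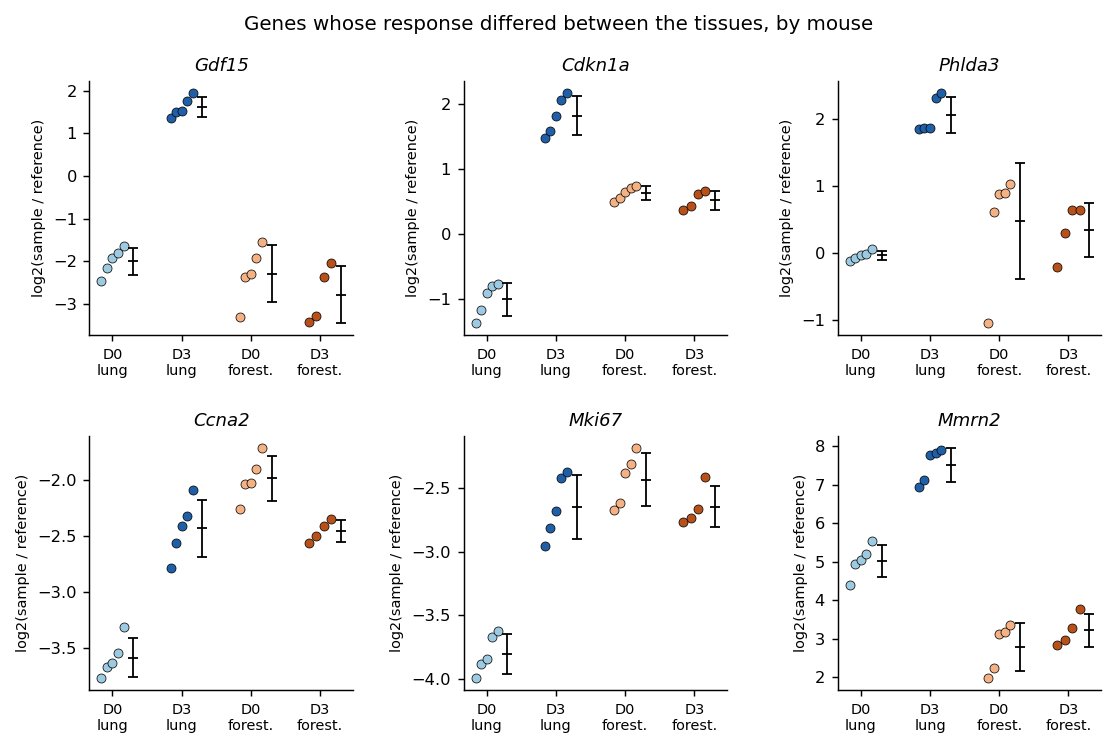
Points are the log2 ratio of sample to reference RNA of each mouse (y axis) for 6 genes in the 4 groups (x axis). Bars are group means with the standard deviation as whiskers. The D3 lungs lie above the D0 lungs for all 6, whereas the forestomach groups overlap except for Ccna2, where the D3 mice lie lower.

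Genes of cell division formed the next group. Of 21 listed genes, 9 had a higher response in lung and 11 were called higher in lung, and the median difference was 0.93. The lung median was 0.61 and the forestomach median -0.32. The forestomach change was below 0 for 20 of the 21 genes, 3 of them at an unadjusted p under 0.05 and none called. That median turns to 0.46 under median centring of scanner intensities, which brings the median forestomach change of all probes measured in both tissues to 0.66. The list mean lay between 0.52 and 0.86 in D3 lungs and between -0.15 and 0.17 in D0 lungs. In forestomach it lay between -0.43 and -0.20 in D3 and between -0.21 and 0.33 in D0, which overlap at their ends.

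Ccna2, cyclin A2 of S phase and mitosis, was at -3.77, -3.67, -3.63, -3.54 and -3.31 in D0 lung and at -2.78, -2.56, -2.41, -2.32 and -2.09 in D3 lung. In forestomach it was at -2.26, -2.03, -2.02, -1.89 and -1.71 in D0 and at -2.56, -2.50, -2.41 and -2.34 in D3. Both pairs of groups stood apart, in opposite directions, and the D3 lungs came to the level of the D3 forestomachs. The lung change was 1.15, the forestomach change -0.47 (unadjusted p = 0.0216, not called) and the difference 1.63 ± 0.22 (adjusted p = 0.00012). Ccna2 was picked for its high difference, which favours a low forestomach change, so its forestomach values are no evidence of a fall.

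The other called members of the mitosis group were Birc5 (survivin, a chromosomal passenger protein) at 1.79 ± 0.24 (adjusted p = 9.63e-05) on 1 of 3 probes, Mki67 (the Ki-67 antigen of cycling cells) at 1.37 ± 0.26 (adjusted p = 0.0107), Kif20a (a kinesin of cytokinesis) at 1.27, Cdk1 (the kinase of mitotic entry) at 1.13 ± 0.21 (adjusted p = 0.00821), Ccnb1 (cyclin B1) at 1.07 and Aurka (a spindle kinase) at 1.00. Mki67 rose from -4.0, -3.88, -3.85, -3.68 and -3.62 in D0 lung to -2.95, -2.81, -2.68, -2.42 and -2.37 in D3 lung, with no overlap. In forestomach it was at -2.67, -2.62, -2.38, -2.31 and -2.18 in D0 and -2.76, -2.73, -2.67 and -2.41 in D3, where the groups overlapped. Cdk1 rose by 0.67 in lung and had a forestomach change of -0.46 (unadjusted p = 0.00521, not called). It was named for its called difference, which favours a low forestomach change, so that value is no evidence of a fall. The other Birc5 probes gave differences of 0.92 and 1.13 that were not called (adjusted p = 0.18 and 0.51), the first of them measured in both tissues, whereas a second Mki67 probe was called. Further probes of Ccnb1, Cdk1, Mad2l1 and Tpx2, measured in neither tissue, had differences between -0.14 and 0.45 and none was called.

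In the replication group Rrm2, a subunit of ribonucleotide reductase, differed by 1.56 ± 0.28 (adjusted p = 0.00511) and Mcm3, a subunit of the replicative helicase, by 0.86, and the remaining 6 genes were not called for the difference. Spc25, a kinetochore protein outside the list but among the highest differences, was at 1.85 ± 0.23 (adjusted p = 2.42e-05). Its ratios ran from -3.70 to -3.35 in D0 lung and from -2.24 to -1.49 in D3 lung, against -2.08 to -1.49 in D0 forestomach and -2.22 to -1.84 in D3 forestomach. Further called genes of division, chosen after their values were seen, were Ncaph (condensin) at 1.55, Ckap2 at 1.42, Tpx2 at 1.39, Prc1 at 1.1, Tacc3 at 1.00, Mad2l1 at 0.99, Cks1b at 0.98, Rrm1 at 0.96, Fen1 at 0.78 and Rfc5 at 0.71. The growth regulators Mycn at 1.17 and Ccnd1 (cyclin D1) at 1.14 were called too.

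Leaving out single mice ended the call in 12 of 19 fits for Ccnb1 (adjusted p up to 0.094), 11 for Tpx2 (0.131), 8 for Ckap2 (0.0878) and 7 for Mcm3 (0.0981), each highest without D3 forestomach mouse 16, and the same mouse alone ended those of Kif20a (0.0685), Prc1 (0.0624) and Mycn (0.051). Without mouse 17 the calls of Fen1 (0.174) and Rfc5 (0.0788) were lost, 15 and 4 times in all. Quantile normalization ended the calls of Mki67 (0.12), Kif20a (0.072), Aurka (0.19) and Rrm2 (0.17). With mouse as a block the calls of Rrm2 (adjusted p = 0.0519), Mcm3 (0.11) and Ccnd1 (0.0524) were lost.

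Cell cycle promoters often carry CCAAT boxes and a cell cycle homology region, and the upstream sequences of Mki67 and Cdk1, both called, are shown because each holds several of both. They are the 250 bases before the start in RefSeq (GRCm38.p6), at chr7:135716380-135716629 on the minus strand for Mki67 and chr10:69352913-69353162 on the minus strand for Cdk1. Capitals mark CCAAT or its reverse ATTGG (3 in each) and TTTGAA or its reverse TTCAAA (2 in each).
Mki67: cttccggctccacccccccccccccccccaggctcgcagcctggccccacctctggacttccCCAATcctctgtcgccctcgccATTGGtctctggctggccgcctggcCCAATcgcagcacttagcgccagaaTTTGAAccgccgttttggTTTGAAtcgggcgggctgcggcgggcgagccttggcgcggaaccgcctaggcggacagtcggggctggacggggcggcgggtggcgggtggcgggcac
Cdk1: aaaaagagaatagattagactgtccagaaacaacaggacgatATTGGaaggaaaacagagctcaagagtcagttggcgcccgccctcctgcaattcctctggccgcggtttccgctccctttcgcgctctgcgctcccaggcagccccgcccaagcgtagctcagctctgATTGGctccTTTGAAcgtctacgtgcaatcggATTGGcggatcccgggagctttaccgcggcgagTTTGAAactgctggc

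On either strand of the same window, CCAAT was present in 15 of the 17 list members that were in the promoter table, 6 of the 7 called ones, and in 37.5% of all 27025 genes of the table. TTTGAA was present in 6 of the 17, 2 of the 7 called ones, and 18.3% of all genes. Both motifs occurred together in 6 of the 17 and in 6.45% of all genes. These are matches of letters and not measured binding.

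Histone genes that are expressed in S phase were counted as a list chosen after their values were seen. Of 38 such genes of the clusters, 4 were called for the difference, all of the H2A family, and the median difference was 0.27 (lung 0.16, forestomach -0.18, the last turning to 0.31 under median centring against a median of 0.66 for all measured probes). H2ac22 was called at 1.41 ± 0.24 (adjusted p = 0.00308), H2ac11 at 1.34, H2ac15 at 1.03 and H2ac20 at 0.95. H2ac22 ran from -3.1 to -2.40 in D0 lung and from -2.43 to -1.35 in D3 lung, which overlap at their ends. In forestomach it ran from -1.80 to -1.47 in D0 and was lower in all 4 D3 mice, from -2.56 to -1.84 (change -0.56, unadjusted p = 0.0039, not called). H2ac22 too was named for its called difference, which favours a low forestomach change, so these values are no evidence of a fall. These genes are near-identical copies, so 1 probe may read several of them. The call of H2ac20 was lost in 10 of 19 fits without 1 mouse (adjusted p up to 0.139 without D3 forestomach mouse 17).

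Some genes of high difference are known, among other places, from blood vessels, a grouping made after their values were seen. Mmrn2, a matrix glycoprotein of endothelium, was at 4.41, 4.94, 5.06, 5.20 and 5.56 in D0 lung and at 6.95, 7.13, 7.78, 7.83 and 7.91 in D3 lung. In forestomach it was at 1.97, 2.26, 3.13, 3.18 and 3.37 in D0 and at 2.84, 2.96, 3.29 and 3.79 in D3. The lung groups were apart and the forestomach groups overlapped, with a lung change of 5.61-fold and a difference of 2.05 ± 0.36 (adjusted p = 0.00378), although the call was lost (adjusted p = 0.051) when D0 and D3 arrays alone were fitted. Ackr3, a scavenging receptor of the chemokine CXCL12, differed by 1.71 ± 0.32 (adjusted p = 0.00884), with values within slides from 0.05 to 2.70, and with mouse as a block its call was lost (0.0853).

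Cd34, a surface sialomucin of endothelium and of blood cell progenitors, rose from a range of 0.39 to 0.80 in D0 lung to 1.54 to 3.04 in D3 lung, against -1.80 to -0.05 in D0 and -1.70 to -0.69 in D3 forestomach. Its difference was 2.06 ± 0.44 (adjusted p = 0.0342), and a second probe gave 1.24 (adjusted p = 0.0310). Within slide 3 it was -0.27. Its call was lost with mouse as a block (0.15) and in 13 of 19 fits without 1 mouse (up to 0.0991 without D3 forestomach mouse 19).

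Chosen after their values were seen, Ramp3 (a subunit of adrenomedullin receptors) at 1.48 ± 0.26, Vegfc (a growth factor of lymphatic vessels) at 1.42 ± 0.27, Bcl6b (a transcriptional repressor) at 1.43, Pkn3 (a protein kinase) at 1.39 and Nes (nestin, an intermediate filament) at 1.17 were called as well. Vegfc ran from 0.41 to 1.07 in D0 lung and from 1.59 to 2.64 in D3 lung, with overlapping forestomach groups. With mouse as a block the calls of Vegfc (0.0699) and Bcl6b (0.105) were lost. Of 19 genes listed for lung endothelium, Mmrn2 alone was called for the difference, the median difference was -0.13 and the lung median 0.01, and list means overlapped between D3 lungs (-0.12 to 0.24) and D0 lungs (-0.23 to 0.30). Esm1 (an endothelial proteoglycan, -1.56) and Gpihbp1 (the capillary anchor of lipoprotein lipase, -1.41) were called lower in lung, with differences of -1.33 and -1.16 that were not called.

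The remaining genes of high difference were of mixed function. Ces2e, a carboxylesterase that hydrolyses esters and amides, was at 0.41, 0.56, 0.80, 0.90 and 1.11 in D0 lung and at 2.91, 2.94, 3.1, 3.44 and 3.57 in D3 lung. Its forestomach groups overlapped (1.04 to 2.21 in D0 and 1.36 to 2.23 in D3), and the difference was 2.08 ± 0.39 (adjusted p = 0.00821, and 0.053 without the forestomach arrays low in glandular markers). It was 1 of 8 listed carboxylesterases called, and Ces2c, called in lung at 2.40 on 1 of 3 probes, had a forestomach change of 0.71 with a difference of 1.69 ± 1.36. A second Ces2c probe, measured in both tissues, had changes of 0.73 and 0.80 and a difference of -0.07. The further probes of Ces2e and Celf5, measured in neither tissue, were not called. Celf5, an RNA-binding protein, differed by 1.88 ± 0.42 (adjusted p = 0.0441) but was well above background on 1 of 5 D0 lung arrays, and its call was lost in 14 of 19 fits without 1 mouse (up to 0.113 without D3 lung mouse 16). Prss23, a secreted serine protease, differed by 1.75 ± 0.34 (adjusted p = 0.0127, lost without D3 forestomach mouse 17 at 0.0557), and Serp2, a small protein of the endoplasmic reticulum, by 1.60 ± 0.26 (adjusted p = 0.00162). Srgn, the proteoglycan serglycin of blood cell granules, at 1.19 and the adaptor gene Abi3 at 0.88 were chosen after their values were seen. The Abi3 call was lost in 2 of 19 fits without 1 mouse (up to 0.0642 without D3 forestomach mouse 17).

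The 4 probes lower in lung named 3 genes. Syt15, of the synaptotagmin family, fell from 2.16, 2.29, 2.75, 3.07 and 3.39 in D0 lung to 0.42, 0.76, 1.04, 1.39 and 1.64 in D3 lung, with overlapping forestomach groups (0.48 to 1.58 and 0.53 to 1.25) and a difference of -1.73 ± 0.38 (adjusted p = 0.0395). Wdr45, an autophagy protein, fell from a range of 1.74 to 2.06 to one of 1.27 to 1.51 in lung, and was at -0.34 to 0.33 in D0 and 0.25 to 0.42 in D3 forestomach, a difference of -0.85 ± 0.15 (adjusted p = 0.00511). A second Wdr45 probe, measured in both tissues, gave -0.62 and was not called (adjusted p = 0.10), and a second Syt15 probe, measured in neither, gave -0.13. Pan3, a subunit of an mRNA deadenylase, differed by -0.65 ± 0.14 (adjusted p = 0.0309), with a lung change of -0.33 and a forestomach change of 0.32. The calls of Syt15 and Pan3 were lost in 13 and 9 of 19 fits without 1 mouse (up to 0.141 without D3 forestomach mouse 16 and 0.135 without mouse 17), and that of Pan3 with mouse as a block (0.0524).

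No probe met the test for a change in both tissues, which takes the larger of the tissue p-values (smallest adjusted p 0.147, 189 probes at an unadjusted p under 0.05, 18 of these at least 1.5-fold the same way in both). The average of the tissues, which rests on more arrays but not on more mice, was called at 43 probes (0.0772%), 36 higher (0.0647%) and 7 lower (0.0126%). Its p takes the tissues of a mouse as independent. With mouse as a random block 41 probes were called for the average, all among the 43. Of these, 22 also had a called difference, and 9 had changed at least 1.5-fold the same way in both tissues. Of the 28 listed p53 targets, 7 were called higher for the average, with a forestomach list median of 0.00. Zmat3 and Ephx1 were called for the average without a called difference, at 1.13-fold and 1.25-fold in forestomach. An average call alone therefore does not mark a shared change.

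Among probes with a gene symbol, genes of the circadian clock led those that moved alike. In the clock, the activators CLOCK and BMAL1 (the product of Arntl) drive genes through E-boxes, among them the transcription factors Dbp, Tef and Hlf and the repressors of the Per and Nr1d families, while Nfil3 competes with Dbp for its sites and, like Arntl, peaks out of phase with it. Dbp was at -1.71, -1.61, -1.29, -0.96 and -0.35 in D0 lung and at 0.32, 0.85, 0.89, 1.36 and 1.85 in D3 lung. In forestomach it was at -2.62, -2.34, -2.31, -2.10 and -2.08 in D0 and at -0.50, -0.08, 0.00 and 0.10 in D3. The D3 mice were above all D0 mice in both tissues.

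The Dbp change was 4.72-fold in lung (log2 2.24, adjusted p = 0.000719) and 4.50-fold in forestomach (log2 2.17, unadjusted p = 6.49e-05, not called in that tissue), and the average was 2.20 ± 0.28 (adjusted p = 2.96e-05). The difference between tissues was 0.07 with a 95% interval from -1.05 to 1.2, which holds changes of more than 1.5-fold in either direction. When D0 and D3 arrays alone were fitted, both Dbp probes were called in forestomach. The 2 arrays of mouse 18 gave -0.27 and 0.28.

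Tef ran from 0.76 to 1.24 in D0 lung and from 1.81 to 2.31 in D3 lung, and from -1.30 to -0.35 in D0 and 0.30 to 0.60 in D3 forestomach, again without overlap. Its average was 1.13 (adjusted p = 0.000105) and its difference -0.28 (95% interval -0.91 to 0.34). Nr1d2, a nuclear receptor that represses Arntl, rose from a range of -0.18 to 0.30 to one of 0.87 to 1.51 in lung and was at -0.81 to -0.37 in D0 and 0.00 to 0.57 in D3 forestomach, with an average of 1.02 (adjusted p = 0.000112) and a difference of 0.20 (-0.37 to 0.78). Hlf, named after its values were seen, had an average of 0.78 (adjusted p = 0.0125), a lung change of 1.04 and a forestomach change of 0.52.

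Nfil3 moved the opposite way. It was at -1.96 to -0.87 in D0 and -2.50 to -1.90 in D3 lung, and at -0.82 to -0.31 in D0 and -1.78 to -0.78 in D3 forestomach, so that single mice touched the other group in both tissues. The average change of Nfil3 was -0.81 (adjusted p = 0.00275) and its difference 0.13 (-0.44 to 0.69), and 3 of 18 alternatives lost the average call. The 2 arrays of mouse 18 gave 0.21 and -1.77, the first above every D0 forestomach mouse. Arntl was at 0.47, 0.51, 0.58, 0.75 and, in 1 mouse, -0.20 in D0 lung and at -1.79, -1.51, -1.17, -0.69 and -0.42 in D3 lung, with an average of -1.04 (adjusted p = 0.00693). Its forestomach change was -0.54, with overlapping groups, and without the forestomach arrays low in glandular markers the average call was lost (-0.90, adjusted p = 0.052).

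**Figure D3:**
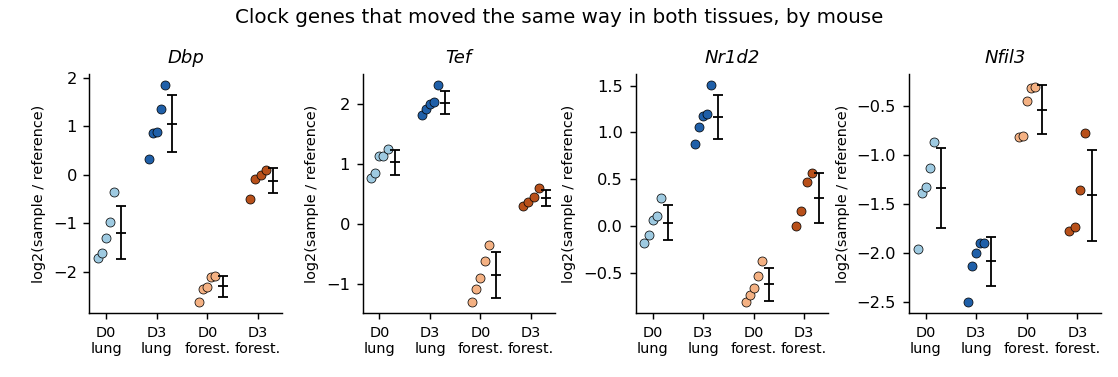
Points are the log2 ratio of sample to reference RNA of each mouse (y axis) for 4 clock genes in the 4 groups (x axis). Bars are group means with the standard deviation as whiskers. Dbp, Tef and Nr1d2 are higher at D3 in both tissues, and the group means of Nfil3 are lower.

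Of 11 listed clock genes of the Dbp phase, 4 were called higher for the average and none for the difference. The median change was 0.57 in lung and 0.41 in forestomach, the forestomach change was above 0 for 10 of 11, and 6 of them had an unadjusted p under 0.05 there, a share 1.70% of all probes reached in that direction. The list means did not overlap between D3 (0.53 to 1.05 in lung, 0.53 to 0.82 in forestomach) and D0 (-0.19 to 0.20 and -0.26 to 0.18). Of 5 genes of the opposite phase, Arntl and Nfil3 were called lower for the average, and Clock, Npas2 and Cry1 were not, with lung changes of -0.29, -0.25 and 0.12 and forestomach changes of 0.20, 0.15 and 0.04. The time of day at which each group was sampled is not given in the sources used here.

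A promoter of Tef is shown because it holds an E-box, the site that the clock activators bind. Dbp and Nr1d2, which also moved alike, had no CACGTG in the 250 bases upstream. The 250 bases lie at chr15:81802423-81802672 on the plus strand (RefSeq, GRCm38.p6), before 1 of the 2 starts given for Tef. Capitals mark CACGTG, which occurs once.
Tef: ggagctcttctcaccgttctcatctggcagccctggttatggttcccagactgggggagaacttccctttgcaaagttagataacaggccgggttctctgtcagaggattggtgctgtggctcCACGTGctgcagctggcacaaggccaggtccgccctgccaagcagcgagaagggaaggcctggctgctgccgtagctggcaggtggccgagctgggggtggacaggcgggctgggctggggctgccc

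CACGTG was present in the 250 bases upstream of 4 of the 10 listed genes of the Dbp phase in the table and of 6.86% of all genes. The site of Dbp itself, TTATGTAA on either strand, was present in 1 of the 10 and 0.977% of all genes. Other motifs counted were more frequent in this list. CCAAT was present in 7 of the 10 and 37.5% of all genes, so it was not limited to the cell cycle list. The core of the AhR element, GCGTG on either strand, was present in 10 of the 10 and 30.9% of all genes, and in 4 of 7 listed AhR genes. These too are matches of letters and not measured binding.

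Outside the clock, Spon2, a secreted matrix protein of innate immunity, was lower in both tissues. It fell from a range of -0.37 to 0.26 to one of -2.50 to -1.15 in lung, was at -1.30 to -0.11 in D0 and -1.91 to -1.50 in D3 forestomach, and averaged -1.17 (adjusted p = 0.00529). Further genes changed at least 1.5-fold the same way in both without a call were the fibrinogen gene Fgg (0.63 in lung, 1.49 in forestomach), the co-chaperones Dnaja1 (-0.96 and -0.64) and Hsph1 (-1.08 and -0.67), the LIM protein gene Fhl1 (-0.68 and -0.86) and Kazn (0.65 and 0.92). A second probe of Dnaja1 gave -0.30 and -0.06 and one of Kazn 0.38 and 0.24, neither measured in forestomach. For Fgg the 2 arrays of mouse 18 gave 5.10 and 0.59.

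None of the 9 listed AhR genes was called for the difference. Cyp1a1, the classic AhR-induced enzyme, was at 1.85, 2.31, 2.73, 3.23 and 3.67 in D0 lung and 0.69, 1.21, 1.45, 2.69 and 4.16 in D3 lung, and at -0.23, -0.04, 0.07, 0.70 and 3.48 in D0 and 0.62, 0.75, 1.75 and 1.84 in D3 forestomach. The groups overlapped in both tissues, and the difference of -1.16 ± 1.00 leaves wide room on either side. Cyp1b1, a hydrocarbon-oxidising enzyme of many tissues, was called in lung at 0.59 (adjusted p = 0.0487), with a forestomach change of 0.14 and a difference of 0.46 ± 0.34. Ephx1, microsomal epoxide hydrolase and chosen after its values were seen, rose by 1.12 in lung with a forestomach change of 0.32 and no called difference (0.80 ± 0.26).

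Over all probes the median standard error of the difference was 0.155. Of the 326 probes called in lung, 240 had no called difference. For these a lung-limited response and a shared one cannot be told apart by this test at this number of mice. Examples from the lists were Fn1 (fibronectin, 0.62 in lung and -0.11 in forestomach), Egr1 (an immediate early factor, 0.65 and 0.08) and the chaperone gene Dnajb1, lower at -1.10 in lung and at -0.19 in forestomach.

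No gene was called in forestomach, so no response there could be set against an unmoved lung. By size alone, 212 probes with a symbol changed at least 1.5-fold in forestomach and less than 1.2-fold in lung, and 35 of them had an unadjusted p under 0.05. Those with the smallest p were Ddx5 (an RNA helicase, 0.60), Ankrd16 (0.60), Ccm2l (0.89), Mbl2 (mannose-binding lectin, 1.27), the lymphocyte antigen gene Cd52 (-0.62), the splicing factor gene Srsf5 (0.66), the neuropeptide receptor gene Adcyap1r1 (0.76) and Tmprss11g (0.73). Their lung changes lay between -0.17 and 0.24. For Mbl2 the 2 arrays of mouse 18 gave 3.63 and 1.23. The 2 other Ddx5 probes, measured in both tissues, had forestomach changes of 0.20 and -0.03, and those of Ccm2l, not measured in forestomach, 0.27 and 0.09.

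Interferon and antigen presentation genes were lower in forestomach without a call. Of 11 interferon genes, 10 were below 0 there and 5 had an unadjusted p under 0.05 (2.03% of all probes were lower at that p), among them Isg15 (a ubiquitin-like modifier, -0.69), Oasl2 (-0.57) and Irf7 (the master regulator of type 1 interferon, -0.51). The forestomach median was -0.45, which turns to 0.14 under median centring, where the median of all probes measured in both tissues is 0.66, and the lung median was 0.17. Bst2 (tetherin) was the member called for the difference (1.03 ± 0.23, adjusted p = 0.0447), with a call lost with mouse as a block (0.15) and in 17 of 19 fits without 1 mouse (up to 0.134 without D3 forestomach mouse 17). Of 7 MHC class II genes none was called, 6 were lower in forestomach (median -0.24, and 0.36 under median centring against a median of 0.66 for all measured probes), and Cd74, the invariant chain, was at -0.47 (unadjusted p = 0.0036).

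**Figure D4:**
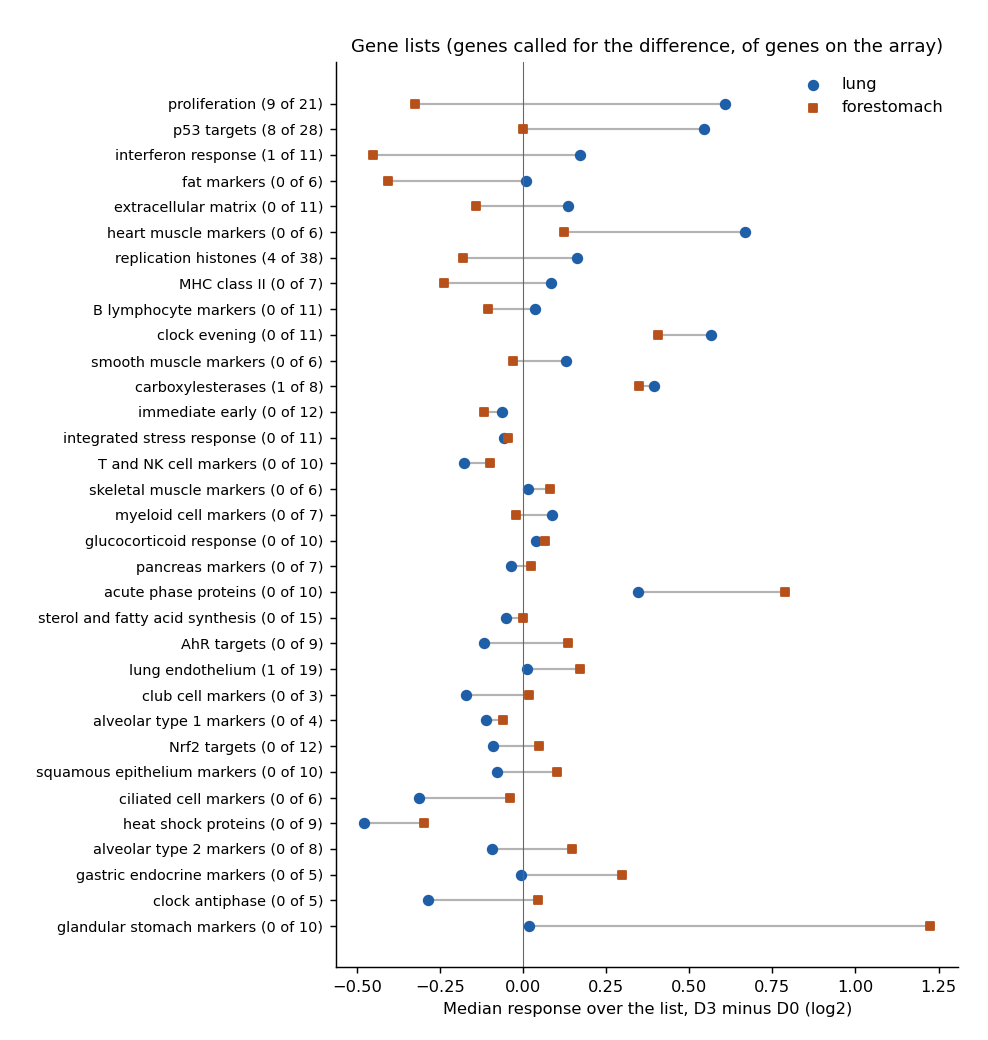
Each line is 1 of 33 gene lists, with its median D3 minus D0 change (x axis, log2) in lung (circles) and forestomach (squares) and, in brackets, how many of its genes were called for the difference. The proliferation and p53 lists have their lung median to the right of the forestomach median, and the clock evening list has both near 0.5.

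Among lists with no gene called for the difference, medians of the difference were -0.11 for the 9 AhR genes, -0.17 for 12 Nrf2 genes (oxidant defence), 0.03 for 11 genes of the integrated stress response, 0.04 for 12 immediate early genes, -0.03 for 10 glucocorticoid genes, -0.08 for 15 genes of sterol and fatty acid synthesis and 0.41 for 11 of the extracellular matrix. Chaperones and acute phase proteins were listed after their values were seen. The 9 chaperones had medians of -0.48 in lung and -0.30 in forestomach, which turn to 0.09 and 0.54 under median centring, where the medians of all probes measured in both tissues are 0.38 and 0.66. The 10 acute phase genes had medians of 0.35 and 0.79, and 3 of the Serpina1 family were called in lung. Their list means on the D3 forestomach arrays ran from 0.09 to 2.17, with a median of 0.35. For Fgb, a member of that list, the 2 arrays of mouse 18 gave 4.34 and 0.86.

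Among markers of other cell types, the B lymphocyte, T and NK cell and myeloid lists had median differences of 0.15, 0.02 and -0.03, and alveolar type 2 and squamous markers of -0.29 and -0.21, with no member called. Heart muscle genes varied between D3 lungs, whose list means ran from -1.06 to 2.22 against -0.88 to 0.74 in D0 lungs, and fat genes had a mean of 2.29 in the forestomach of D0 mouse 2 against -0.81 to -0.31 on the other D0 and -0.75 to -0.33 on the D3 forestomach arrays. Their part in the differences was not tested.

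**Figure D5:**
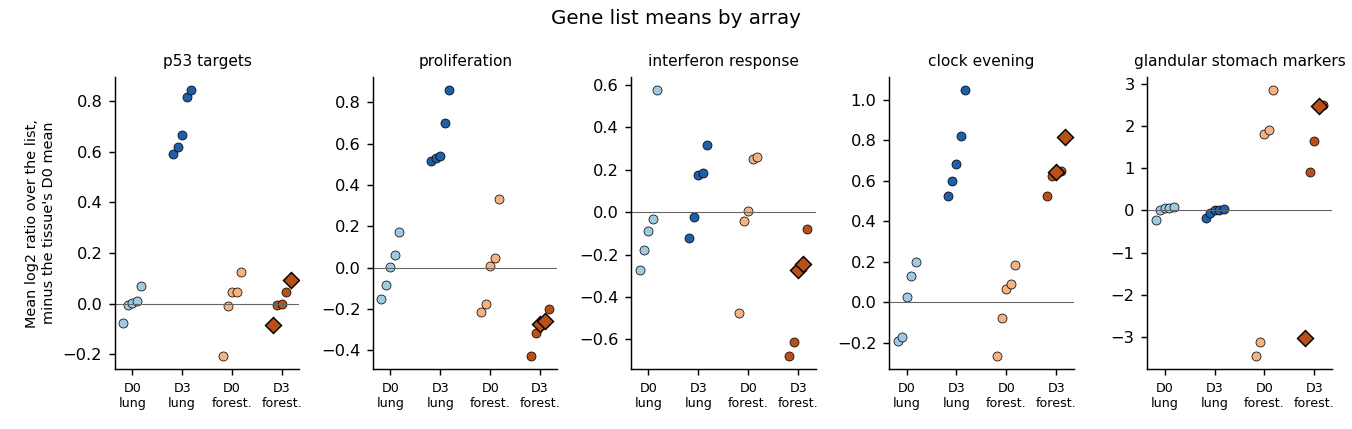
Points are the mean log2 ratio over a gene list on each array, less the D0 mean of the tissue (y axis), in the 4 groups (x axis), with diamonds for the 2 arrays of mouse 18. The D3 lungs lie above the D0 lungs in the p53 and proliferation panels, both tissues are higher at D3 in the clock panel, and 3 forestomach arrays lie apart in the glandular stomach panel.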

How the data were processed

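The authors extracted scanner intensities (Cy5 and Cy3 per spot, linear scale, 1 scan per array) in Agilent Feature Extraction, version 10.7.3.1. Per the file headers, its log10 ratio is corrected for background and for dye bias by that program. The values analysed here are the log2 Cy5/Cy3 ratios of a probe table that the authors deposited beside the scanner files. The table does not state its scale. Against loess-normalized log2 ratios computed here from the deposited intensities without background correction, each of its columns had r between 0.995 and 0.999 and a slope between 0.990 and 0.998, so scale and direction (sample over reference) were read from that comparison. Column medians lay between -0.04 and -0.02, and the study's methods name LOWESS on median intensities with no background subtracted, though the table itself does not state its steps. No spot was saturated.

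Per probe, limma 3.58.1 (R 4.3.3, lmFit and eBayes, 29 residual degrees of freedom, two-sided) fitted 1 mean per tissue and dose group over all 38 arrays and 4 dose groups, with the 2 forestomach arrays of mouse 18 averaged. The difference and the average came from this joint fit, and the change in each tissue from a fit of that tissue alone. MAANOVA, used in the study's methods, was not run. A gene list took 1 probe per gene, that with the highest mean Cy5 signal. A probe counted as measured in a tissue when it was well above background on all arrays of its D0 or D3 group. The members, lists and tests were chosen with earlier results of these data known.

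Genes were named as the 15 highest and up to 10 lowest called differences, the 10 with the smallest p for a change in both tissues, the 8 with the smallest forestomach p among those unmoved in lung, list members that were called or had the largest differences, and 15 p53, clock and AhR genes in any case. Others are stated as chosen after their values were seen. Gene symbols are those of the current RefSeq gene table matched by accession, and 26413 probes had one (20018 genes). The statistics were run on simulated data with known changes and independent noise. That simulation held no mouse, slide or dye effects, so it cannot show how the calls fare under them. Promoters came from RefSeq (GRCm38.p6) and figures from matplotlib 3.10.9.

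Same-numbered lung and forestomach samples come from the same animal. Their deviations from group means correlated between 0.077 and 0.322 over 18 mice (median 0.226), and 17 exceeded 0.1. The tissues of each such mouse shared a slide, the second array of mouse 18 apart, so these correlations cannot separate animal from slide. The mouse entered as a block among the alternatives, which also changed the normalization, background correction, filter, variance model, arrays used and slide or scan day blocks.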

Additional observations from a re-analysis of the deposited data

Results flagged for a closer look

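The test of the difference itself set the tissues apart at 105 probes. Named genes with a called difference, lung minus forestomach on the log2 scale, numbered 53, and 50 of them were higher in lung. Those above 2 were Gdf15 4.10, Cdkn1a 2.93, Phlda3 2.22, Ces2e 2.08, Cd34 2.06 and Mmrn2 2.05. Between 1.5 and 2 were Celf5 1.88, Spc25 1.85, Birc5 1.79, Prss23 1.75, Ackr3 1.71, Ccng1 1.64, Ccna2 1.63, Serp2 1.60, Rrm2 1.56 and Ncaph 1.55. Next came Ramp3 1.48, Bcl6b 1.43, Ckap2 1.42, Vegfc 1.42, H2ac22 1.41, Bax 1.41, Pkn3 1.39, Tpx2 1.39, Aen 1.38, Mki67 1.37, H2ac11 1.34, Trp53inp1 1.27, Kif20a 1.27, Srgn 1.19, Mycn 1.17, Nes 1.17, Ccnd1 1.14, Cdk1 1.13, Prc1 1.1, Ccnb1 1.07, H2ac15 1.03, Bst2 1.03, Aurka 1.00 and Tacc3 1.00. Below 1 were Mad2l1 0.99, Cks1b 0.98, Rrm1 0.96, H2ac20 0.95, Abi3 0.88, Mcm3 0.86, Ei24 0.80, Fen1 0.78, Mdm2 0.74 and Rfc5 0.71. The genes lower in lung were Pan3 -0.65, Wdr45 -0.85 and Syt15 -1.73.

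Single samples that stood far from the rest of their group by Dixon's ratio numbered 9 among 136 gene and group pairs and 9 among 132 pairs of a list mean and group, where chance gives about 1 in 20. Of the genes, D0 forestomach mouse 1 was low for Celf5 (-1.69) and Phlda3 (-1.06) and high for Ccng1 (-0.03), D0 forestomach mouse 4 was high for Spon2 (-0.11) and low for Wdr45 (-0.34), D0 forestomach mouse 2 was high for Syt15 (1.58) and D0 forestomach mouse 5 for Cyp1a1 (3.48). In D0 lung, mouse 4 was low for Ackr3 (0.20) and mouse 5 for Wdr45 (1.74). Of the list means, D0 forestomach mouse 5 stood apart for AhR targets (0.43), mouse 2 for fat (2.29) and mouse 1 for pancreas (0.73) and smooth muscle (-0.82). D3 forestomach mouse 17 stood apart for alveolar type 2 markers (0.59) and mouse 16 for heart muscle (0.18) and squamous epithelium (0.40). In D0 lung, mouse 1 stood apart for interferon genes (0.57) and mouse 3 for glandular stomach markers (-0.22).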

How the results depend on the processing

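Changing 1 choice at a time, the number of probes called for the difference (105) ranged from 72 to 135 under 14 alternatives within 1.5 times of it, and was 2 with median centring of scanner intensities, 68 with a variance trend and robust eBayes, 219 with slide and 211 with scan day as a block. With mouse as a fixed replicate block, which pairs the tissues of an animal, 126 probes were called (80 of the 105), and with mouse as a random block 146. Fits without 1 mouse of a tissue gave 59 to 123. Lung calls (326) were 533 with the Feature Extraction log ratio, 16 with median centring, 741 by adjusted p alone and 499 with slide as a block. Average calls (43) were 85, 11, 81 and 68 in the same order, and 65 without the forestomach arrays low in glandular markers. Forestomach calls (0) were 1 with trend and robust eBayes, 3 with D0 and D3 arrays alone (both Dbp probes and XR_033677) and 1 with the arrays of mouse 18 kept separate, and shared calls (0) were 1 with trend and robust eBayes. Each of these single calls was XR_033677, a transcript without a symbol. Its changes with trend and robust eBayes were 1.30 in lung and 1.53 in forestomach. The Cd34 difference was -0.27 within slide 3. Of 63 named results, the Gdf15 difference and the Dbp average kept their calls in every alternative and in all 19 fits without 1 mouse. Median centring ended 61 calls, quantile normalization 23, the Feature Extraction ratio 17, trend and robust eBayes 16, D0 and D3 arrays alone 13, leaving out the arrays low in glandular markers 12 and mouse as a fixed replicate block 9 of 53.

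Median differences of gene lists moved with the Feature Extraction ratio for clock evening (-0.088), proliferation (1.31), B lymphocytes (0.43), alveolar type 2 (-0.52), skeletal muscle (0.28), pancreas (0.28), acute phase (0.40) and histones (0.44). With median centring, where probes measured in both tissues had a median difference of -0.26, they moved for p53 (0.42), Nrf2 (-0.51), integrated stress (-0.28), glucocorticoid (-0.38), proliferation (0.55, forestomach change 0.46), sterol and fatty acid (-0.38), matrix (0.11), alveolar type 2 (0.28), squamous (-0.84), smooth muscle (-0.32) and histones (0.068), and the interferon forestomach change to 0.14. Quantile normalization gave 0.54 for p53 and 0.67 for proliferation (forestomach -0.13), the background filter 0.067 for AhR and 0.56 for acute phase, and the second array of mouse 18 alone 0.24 for immediate early genes. Without the forestomach arrays low in glandular markers, the values were 0.26 for integrated stress, 0.33 for immediate early, 0.85 for interferon (forestomach -0.73), 0.59 for carboxylesterases, -0.021 for alveolar type 1 and 0.45 for glandular markers. Over fits without 1 mouse, MHC class II ran from 0.052 to 0.38. The cause of these shifts was not tested. Low signal limits genes such as Gdf15 and Bcl6b in forestomach and Celf5 in D0 lung.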
